A study of Homo sapiens with 12 samples.

Results

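Gremlin 1 (GREM1), a secreted antagonist that binds bone morphogenetic proteins (BMPs), was examined beside 8 genes that report on or set the response to BMPs: the inhibitor-of-DNA-binding genes ID1, ID2, ID3 and ID4, the inhibitory SMADs SMAD6 and SMAD7, the pseudoreceptor BAMBI and the type II receptor BMPR2. GREM1 was chosen by its measured levels, which rose with all 3 compounds of the study, so its values against the solvent control describe that choice and were not tested. The other genes belong to the pathway by their known roles, but they too were chosen with earlier results of these data known, so their counts are descriptions of a chosen set. These 9 genes each matched 1 row of a table of 60710 genes, and all of them were among the 16366 genes with enough counts to be tested. RNA came from SH-SY5Y, an established human neuroblastoma line, in 4 groups of 3 libraries. Cells received solvent alone (DMSO control), HPPE, zinc protoporphyrin or tin protoporphyrin, each compound at 5 µM, and were lysed after 5 h. The protoporphyrins are heme rings with zinc or tin in place of iron, and they differ from each other in that metal; HPPE is given only by its code name. By title, the series concerns activators of NRF2, a transcription factor that raises antioxidant genes.

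BMPs are secreted ligands that join type I and type II receptors on the cell surface. The active receptors phosphorylate SMAD1, SMAD5 and SMAD9, which enter the nucleus with SMAD4 and raise direct targets, among them the ID genes. SMAD6, SMAD7 and BAMBI are raised by the same signal and dampen it, while GREM1 and related antagonists hold the ligand away from its receptors. In the developing sympathetic nervous system, from which neuroblastoma arises, BMPs help to set the noradrenergic fate.

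The 250 bases before the start sites of 5 of the genes are shown because these genes carry the results: GREM1 and ID4 were higher with all 3 compounds, and ID1, ID3 and BAMBI were higher with HPPE. They are RefSeq sequences on GRCh38.p14, read 5′ to 3′ on the gene's strand, and capitals mark matches on either strand to 4 motifs that were searched. The windows are chr15:32717754-32718003 (GREM1), chr20:31605039-31605288 (ID1), chr1:23559502-23559751 (ID3, minus strand), chr6:19837120-19837369 (ID4) and chr10:28677271-28677520 (BAMBI).
GREM1: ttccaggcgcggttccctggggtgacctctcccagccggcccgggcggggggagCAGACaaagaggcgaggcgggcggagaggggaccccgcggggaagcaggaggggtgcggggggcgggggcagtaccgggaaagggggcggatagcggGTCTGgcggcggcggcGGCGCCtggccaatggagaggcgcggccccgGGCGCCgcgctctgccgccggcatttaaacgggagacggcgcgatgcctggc
ID1: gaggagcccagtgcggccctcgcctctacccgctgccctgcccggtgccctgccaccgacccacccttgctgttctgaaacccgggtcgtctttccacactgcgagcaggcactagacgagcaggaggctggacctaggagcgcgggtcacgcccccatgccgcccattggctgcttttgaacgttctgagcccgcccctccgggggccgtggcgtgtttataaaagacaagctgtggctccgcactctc
ID3: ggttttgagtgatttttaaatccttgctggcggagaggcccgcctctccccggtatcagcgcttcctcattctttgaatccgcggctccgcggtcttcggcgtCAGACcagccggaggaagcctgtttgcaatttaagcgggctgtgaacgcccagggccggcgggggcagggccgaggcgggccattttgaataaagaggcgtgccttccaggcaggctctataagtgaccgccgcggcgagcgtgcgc
ID4: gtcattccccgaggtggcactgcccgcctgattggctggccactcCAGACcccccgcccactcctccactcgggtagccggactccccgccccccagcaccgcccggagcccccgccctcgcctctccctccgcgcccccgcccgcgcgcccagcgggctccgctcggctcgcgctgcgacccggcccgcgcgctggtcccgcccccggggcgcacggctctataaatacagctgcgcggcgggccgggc
BAMBI: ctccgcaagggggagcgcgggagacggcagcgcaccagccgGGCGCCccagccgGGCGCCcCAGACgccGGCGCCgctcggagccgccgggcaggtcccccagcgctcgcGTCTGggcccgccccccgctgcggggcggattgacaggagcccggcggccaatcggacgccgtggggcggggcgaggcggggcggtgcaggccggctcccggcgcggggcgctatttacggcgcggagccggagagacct
The motifs were GGCGCC, a GC-rich element that SMAD1 and SMAD5 can bind, CAGAC, the SMAD box, TGACNNNGC, the core of the antioxidant response element that NRF2 binds, and TGACGTCA, the cyclic AMP response element. GGCGCC occurs 2 times before GREM1, with first bases 83 and 52 upstream of the start, and 3 times before BAMBI. CAGAC occurs 2 times each before GREM1 and BAMBI and 1 time each before ID3 and ID4, and none of the 4 motifs is in the ID1 window. In the windows not shown, ID2 has no match, SMAD6 has 1 TGACNNNGC, SMAD7 has 2 CAGAC, and BMPR2 has 1 GGCGCC and 2 CAGAC. Among 35116 RefSeq promoters of the same length, 16.4% hold GGCGCC, 38% CAGAC, 10.9% TGACNNNGC and 1.65% TGACGTCA. CAGAC is thus common, and a match is only a run of letters in this window. The shares are not matched for GC content, and GGCGCC holds only G and C. GC content was 76.8% in the GREM1 window, 81.2% in that of BAMBI and 78.8% in that of ID4, which has no GGCGCC.

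Library totals ran from 1337028 to 9145399 counts, and DMSO control replicate 3 and zinc protoporphyrin replicate 1 were the shallowest, with 1514595 and 1337028. A count of 3, taken as the limit that a count of 0 allows, corresponded to between 0.328 and 2.24 CPM (counts per 1e+06 counts of the library). This limit takes in counting error alone, because the deposited values count reads and not molecules. The smallest count of any of the 9 genes was 32, for ID4 in DMSO control replicate 3. The labels do not say that the replicates were separate cultures, so p-values measure the spread between these libraries, which may be technical. HPPE replicates 2 and 3 lay close to sampling noise from each other (chi-square per degree of freedom 1.11 over 14244 genes, against 1.49 to 17.42 for the other pairs within groups). They were kept as 2 libraries, and results were also computed with both summed into 1. Libraries also differed, within and between groups, by a trend on transcript length. It was taken as the Spearman correlation with length of a library's deviation from the mean of all 12 libraries. This ran from -0.539 in tin protoporphyrin replicate 1 to 0.567 in zinc protoporphyrin replicate 3. It was negative in all HPPE libraries and positive in all zinc protoporphyrin libraries. A term for the trend can therefore also take up differences between groups. This trend bears on the short transcripts of ID1 (1233 nt), ID3 (1251 nt), BAMBI (1884 nt), ID2 (2041 nt) and ID4 (2344 nt) and on the long one of BMPR2 (11461 nt), and values with the trend as a term in the model are given beside those results. That term was added after the data were seen.

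The cells carried 7 of 8 markers of noradrenergic neuroblastoma above the 3-count limit in all 12 libraries, but TH, which encodes the rate-limiting enzyme of catecholamine synthesis, reached at most 2 counts. GREM1 is made by fibroblasts in many tissues. Of 7 fibroblast markers, 6 were above the limit in all libraries and POSTN was at 0 in all. Their summed level was 210 to 232 CPM in DMSO control, 206 to 229 with HPPE, 196 to 216 with zinc protoporphyrin and 219 to 227 with tin protoporphyrin, and each treated range overlapped that of the control. None of these markers was called with HPPE, and with each protoporphyrin 2 rose and 1 fell, beside 2.25% and 2.28% of all tested genes called. By edgeR's test, COL1A2 rose with zinc and tin protoporphyrin (log2 fold changes 0.96 and 1.02, adjusted p = 0.0208 and 0.00658). DCN rose (0.68 and 0.73, adjusted p = 0.0388 and 0.0159) and PDGFRA fell (-0.48 and -0.33, adjusted p = 0.0072 and 0.0415). In DMSO control PDGFRA was at 84.8 CPM, DCN at 9.98 and COL1A2 at 3.53, so the sum hides the 2 rises. Of 5 markers of the mesenchymal neuroblastoma state, 4 were above the limit in all libraries and PRRX1 reached at most 1 count. Their summed level was 692 to 770 CPM in DMSO control, 837 to 861 with HPPE, 762 to 864 with zinc protoporphyrin and 892 to 918 with tin protoporphyrin. It lay above the control range with HPPE and tin protoporphyrin and overlapped it with zinc protoporphyrin. Of the 4, CD44 rose with all 3 compounds (log2 fold changes 0.68, 0.53 and 0.72; adjusted p = 0.000147, 0.00509 and 0.000118) and SNAI2 rose with HPPE (0.64, adjusted p = 0.00947). Their part in the results was not tested. The 3 leukocyte markers summed to at most 0.317 CPM. In bulk RNA, fewer cells that express a gene and less RNA per cell cannot be told apart.

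**Figure D1:**
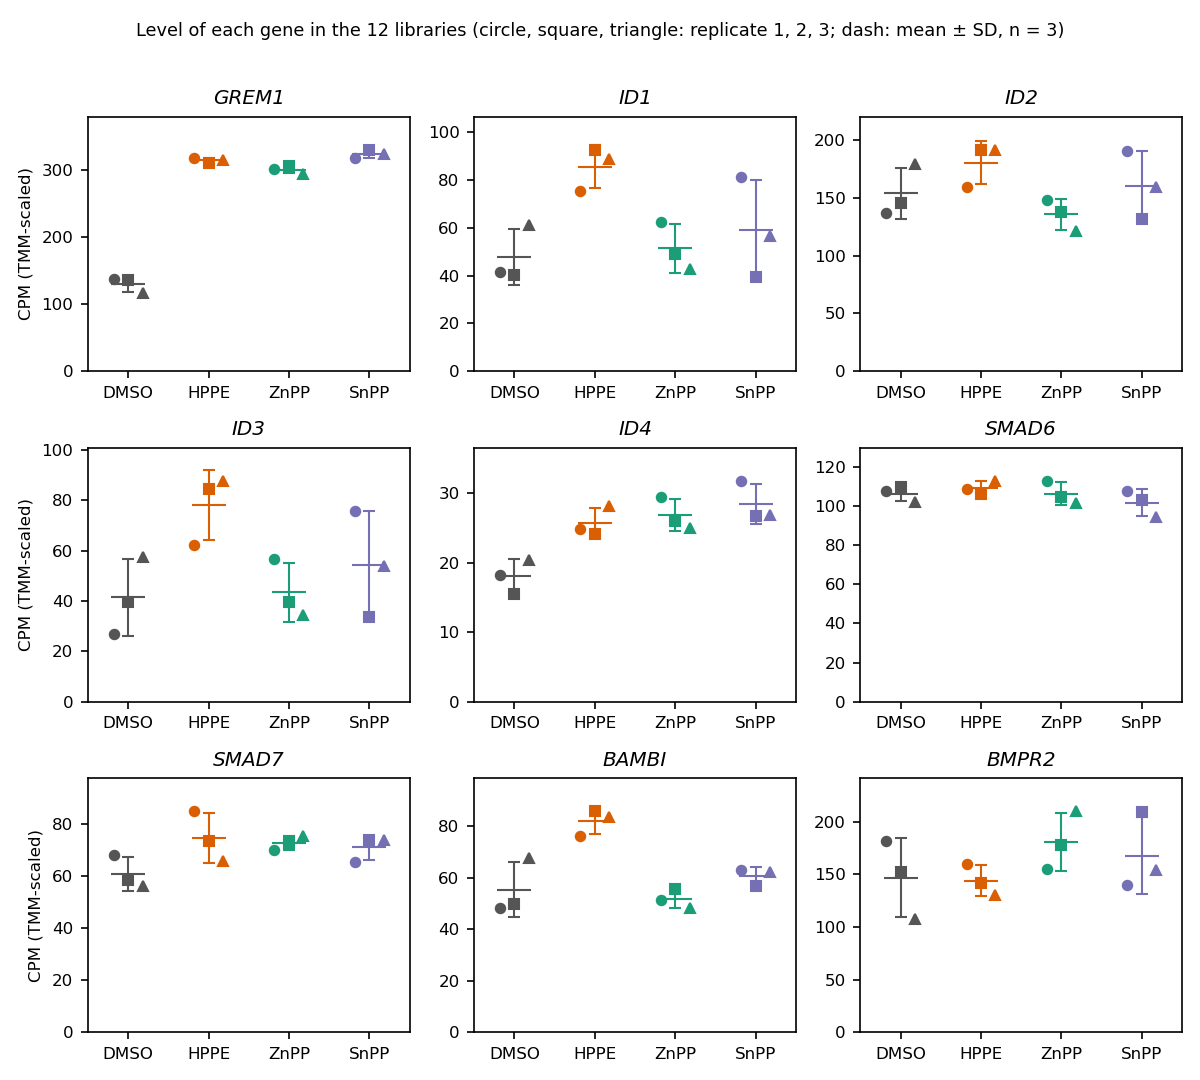
Level of each of the 9 genes in CPM (y axis, from 0) in the 4 groups (x axis; ZnPP and SnPP are zinc and tin protoporphyrin). Circles, squares and triangles are replicates 1, 2 and 3, and dashes with bars are means ± SD (n = 3); GREM1 sits at 116.1 to 137.1 CPM in DMSO control and at 294.8 to 330.4 CPM with the compounds, while SMAD6 is level across groups.

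The level of GREM1 (ENSG00000166923.12, chr15:32718004-32745106) was 137.1, 135.8 and 116.1 CPM in DMSO control replicates 1, 2 and 3. It was 318.6, 310.3 and 315.7 CPM with HPPE, 302.7, 306.4 and 294.8 CPM with zinc protoporphyrin, and 318.1, 330.4 and 324.4 CPM with tin protoporphyrin. All 9 treated libraries lay above all 3 controls, and the spread within each treated group was small, with means of 314.9 ± 4.21, 301.3 ± 5.92 and 324.3 ± 6.14 CPM against 129.7 ± 11.7 CPM in the control (SD, n = 3). HPPE gave a log2 fold change against DMSO control of 1.26 ± 0.08 (SE), zinc protoporphyrin one of 1.20 ± 0.08 and tin protoporphyrin one of 1.31 ± 0.08, or 2.4-fold, 2.3-fold and 2.47-fold. All 3 comparisons share the same control libraries. With the length trend as a term these values were 1.29, 1.16 and 1.31, although the GREM1 transcript, at 14606 nt, is the longest of the 9. An antisense gene on the opposite strand, AC090877.2, covers 188 of those 14606 exon bases; whether strand was used in counting is not given in the sources used here.

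**Figure D2:**
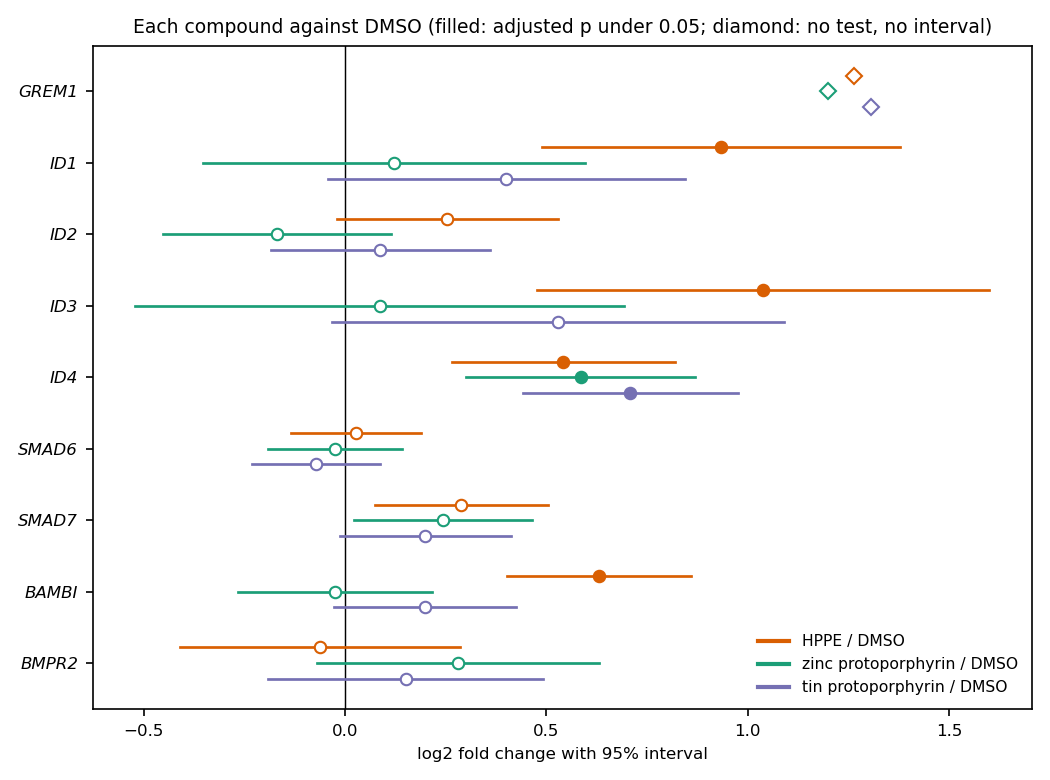
Log2 fold change of each gene against DMSO control (x axis) with its 95% interval, for HPPE (orange), zinc protoporphyrin (green) and tin protoporphyrin (purple). Filled points passed an adjusted p of 0.05 and diamonds, drawn without an interval, were not tested; ID4 is filled for all 3 compounds, and ID1, ID3 and BAMBI for HPPE.

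Of the 8 genes beside GREM1, 4 rose with HPPE against DMSO control (ID1, ID3, ID4 and BAMBI) and none fell, where 2.57% of all tested genes were called higher and 4.04% in either direction. The median log2 fold change of the 8 was 0.42, against 0.02 over all tested genes. With zinc protoporphyrin 1 of the 8 rose, where 1.84% of all tested genes were called higher and 2.25% in either direction, and with tin protoporphyrin 1 rose, where 1.9% were higher and 2.28% in either direction. That gene was ID4 in both cases. With HPPE replicates 2 and 3 summed, 1 of the 8 was called with HPPE (BAMBI), where 285 of 16902 tested genes were higher. With the length trend as a term, 6 were called higher with HPPE, 3 with zinc protoporphyrin and 3 with tin protoporphyrin. In that fit 793, 968 and 1155 of all 16366 tested genes were called higher, and 564, 679 and 819 lower. Without those shallowest libraries the number with zinc protoporphyrin was 0, where 158 of 16553 tested genes were higher. Calls are adjusted p-values under 0.05 by edgeR's quasi-likelihood test with Benjamini-Hochberg adjustment over all 16366 genes, and every adjusted p below is of this kind unless another test is named.

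ID proteins are helix-loop-helix proteins without a DNA-binding region that tie up E proteins and so hold back differentiation. ID1 (ENSG00000125968.9, chr20:31605289-31606510) was at 41.7, 40.1 and 61.3 CPM in DMSO control and at 75.5, 92.6 and 89.0 CPM with HPPE. All HPPE libraries lay above all controls, and the log2 fold change was 0.93 ± 0.21 (SE; 95% interval 0.49 to 1.38; 1.91-fold; adjusted p = 0.0163). ID1 was at 62.5, 48.9 and 42.7 CPM with zinc protoporphyrin and at 81.3, 39.4 and 56.5 CPM with tin protoporphyrin, and both groups overlapped the controls. The log2 fold changes there were 0.12 ± 0.22 (adjusted p = 0.803) and 0.40 ± 0.21 (adjusted p = 0.397). Within the groups ID1 followed the length trend: DMSO control replicate 3 and tin protoporphyrin replicate 1, the libraries of their groups in which short transcripts were most raised, held the highest ID1 of their groups. With the length trend as a term, ID1 rose by 0.50 on the log2 scale with HPPE (adjusted p = 4.2e-05) and by 0.35 with zinc protoporphyrin (adjusted p = 0.00587), and its value with tin protoporphyrin was 0.16 (adjusted p = 0.228). With the main axis of the within-group deviations as a term, the values were 0.84 (adjusted p = 9.38e-13), 0.05 (adjusted p = 0.755) and 0.25 (adjusted p = 0.0354). The tin protoporphyrin value thus moved from 0.40 to 0.25. That axis is centred within each group, so it lowers the residual spread and does not carry differences of the length trend between groups. These p-values therefore do not show that the rise outlasts a correction for the length trend. The call for HPPE was lost without DMSO control replicate 1 (0.86, adjusted p = 0.128) or 2 (0.83, adjusted p = 0.131), without HPPE replicate 2 (0.85, adjusted p = 0.094) or 3 (0.91, adjusted p = 0.0577), with those 2 summed (0.91, adjusted p = 0.0562) and with no filter on low counts (0.92, adjusted p = 0.066).

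ID3 (ENSG00000117318.9, chr1:23557926-23559501) showed the same picture as ID1 with a wider spread. It was at 27.0, 39.7 and 57.4 CPM in DMSO control and at 62.2, 84.6 and 87.7 CPM with HPPE, without overlap, a log2 fold change of 1.04 ± 0.27 (SE; 95% interval 0.48 to 1.60; 2.05-fold; adjusted p = 0.0348). With zinc protoporphyrin it was at 56.5, 39.4 and 34.3 CPM and with tin protoporphyrin at 75.8, 33.5 and 54.0 CPM. These overlapped the controls, with log2 fold changes of 0.09 ± 0.29 (adjusted p = 0.906) and 0.53 ± 0.27 (adjusted p = 0.372). The length-trend term brought the HPPE value to 0.47 (adjusted p = 0.000225), raised the zinc protoporphyrin value to 0.40 (adjusted p = 0.00336) and lowered the tin protoporphyrin value to 0.22 (adjusted p = 0.101). With the axis term the values were 0.91 (adjusted p = 2.15e-14), 0.00 (adjusted p = 0.993) and 0.34 (adjusted p = 0.00382). As for ID1, that term lowers the residual spread and does not carry differences of the length trend between groups. The tin protoporphyrin value nevertheless moved from 0.53 to 0.34. The HPPE call was lost with HPPE replicates 2 and 3 summed (0.98, adjusted p = 0.111), with DESeq2 (0.92, adjusted p = 0.153), with no filter on low counts (1.03, adjusted p = 0.331), with unscaled library sizes (1.05, adjusted p = 0.0517) and without any 1 library of either group other than DMSO control replicate 3. Without those libraries the log2 value was lowest at 0.76 (DMSO control replicate 1 left out) and highest at 1.18 (HPPE replicate 1 left out), with adjusted p between 0.0528 and 0.283.

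ID4 (ENSG00000172201.12, chr6:19837370-19842197), the member of the family with a marked role in neural precursors, was the only one of the 8 called against DMSO control with every compound. It was at 18.3, 15.4 and 20.4 CPM in DMSO control and at 24.8, 24.1 and 28.2 CPM with HPPE. It was at 29.4, 26.0 and 25.0 CPM with zinc protoporphyrin and at 31.8, 26.7 and 26.9 CPM with tin protoporphyrin. All 9 treated libraries lay above all 3 controls, as for GREM1. The log2 fold change was 0.54 ± 0.13 for HPPE (SE; 95% interval 0.26 to 0.82; adjusted p = 0.0253), 0.59 ± 0.13 for zinc protoporphyrin (0.30 to 0.87; adjusted p = 0.0309) and 0.71 ± 0.13 for tin protoporphyrin (0.44 to 0.98; adjusted p = 0.00444). The shifts were 1.46-fold, 1.5-fold and 1.63-fold, and with the length trend as a term the log2 values were 0.43, 0.63 and 0.66, all still called. Without DMSO control replicate 2, the lowest, the log2 values were 0.43, 0.47 and 0.59 and none of the 3 was called (adjusted p = 0.217, 0.206 and 0.0845). The HPPE call was also lost without DMSO control replicate 1 (0.59, adjusted p = 0.0864), without HPPE replicate 1 (0.56, adjusted p = 0.0618), 2 (0.58, adjusted p = 0.0735) or 3 (0.49, adjusted p = 0.1), and with the last 2 summed (0.53, adjusted p = 0.0655). The zinc protoporphyrin call was lost without DMSO control replicate 1 (0.64, adjusted p = 0.0684), without zinc protoporphyrin replicate 1 (0.55, adjusted p = 0.0605), 2 (0.59, adjusted p = 0.0825) or 3 (0.63, adjusted p = 0.118), and without both of the shallowest libraries (0.60, adjusted p = 0.0573). The tin protoporphyrin call was lost in a fit of the 2 groups alone (0.70, adjusted p = 0.061).

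ID2 (ENSG00000115738.10, chr2:8682056-8684461), which is expressed in neural crest and neuroblastoma, was not called against DMSO control with any compound. It was at 137.1, 145.5 and 179.3 CPM in DMSO control, 159.2, 191.6 and 191.6 CPM with HPPE, 148.3, 138.3 and 121.7 CPM with zinc protoporphyrin and 191.1, 131.6 and 159.6 CPM with tin protoporphyrin. All 3 treated groups overlapped the controls. The log2 fold changes were 0.25 ± 0.13 (adjusted p = 0.323), -0.17 ± 0.13 (adjusted p = 0.523) and 0.09 ± 0.13 (adjusted p = 0.819), and with the length-trend term 0.02, -0.02 and -0.01. Its antisense neighbour ID2-AS1 covers 38 of 2205 exon bases on the opposite strand.

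BAMBI (ENSG00000095739.11, chr10:28677521-28682932) encodes a membrane protein that resembles a type I receptor without the kinase and blocks signalling. Its level was at 48.3, 49.9 and 67.6 CPM in DMSO control and at 76.3, 85.6 and 83.6 CPM with HPPE, with no overlap. The log2 fold change was 0.63 ± 0.11 (SE; 95% interval 0.40 to 0.86; 1.55-fold; adjusted p = 0.00202). With the length trend as a term it was 0.52 (adjusted p = 6.8e-06). BAMBI stayed called in all 16 alternatives for HPPE against DMSO control, at 0.52 to 0.74 and adjusted p between 2.62e-10 and 0.0339. With zinc protoporphyrin BAMBI was at 51.2, 55.7 and 48.4 CPM and with tin protoporphyrin at 62.9, 56.7 and 62.1 CPM, both overlapping the controls. The log2 fold changes were -0.02 ± 0.11 (95% interval -0.27 to 0.22; adjusted p = 0.939) and 0.20 ± 0.11 (-0.03 to 0.43; adjusted p = 0.416).

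The inhibitory SMADs were not called. SMAD6 (ENSG00000137834.15, chr15:66702236-66782849), which acts mainly on BMP signalling, was at 107.6, 109.7 and 102.1 CPM in DMSO control and between 94.3 and 113.0 CPM in the 9 treated libraries. Every group overlapped every other. Its log2 fold changes against DMSO control were 0.03 ± 0.08 for HPPE (95% interval -0.13 to 0.19), -0.02 ± 0.08 for zinc protoporphyrin (-0.19 to 0.14) and -0.07 ± 0.08 for tin protoporphyrin (-0.23 to 0.09), so each interval lay within 0.23 of 0. SMAD7 (ENSG00000101665.9, chr18:48919853-48950965), which blocks both BMP and TGF-beta receptors, was at 68.3, 58.5 and 56.2 CPM in DMSO control. It was at 84.9, 73.7 and 65.9 CPM with HPPE, 70.0, 72.8 and 75.4 CPM with zinc protoporphyrin and 65.5, 73.7 and 74.0 CPM with tin protoporphyrin. The zinc protoporphyrin libraries lay above all controls, and the other 2 groups overlapped them. The log2 fold changes were 0.29 ± 0.10 (adjusted p = 0.135), 0.24 ± 0.10 (adjusted p = 0.224) and 0.20 ± 0.10 (adjusted p = 0.373). With the length-trend term SMAD7 was called with HPPE (0.42, adjusted p = 0.000366) and with tin protoporphyrin (0.25, adjusted p = 0.0191).

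BMPR2 (ENSG00000204217.15, chr2:202376327-202567749), the main type II receptor for BMPs, varied more within groups than between them. It was at 181.8, 151.9 and 107.2 CPM in DMSO control and at 159.8, 141.8 and 130.8 CPM with HPPE. It was at 155.1, 177.4 and 209.7 CPM with zinc protoporphyrin and at 140.1, 209.1 and 153.8 CPM with tin protoporphyrin. The lowest library of the control and of the tin protoporphyrin group was the one with the highest ID1 and ID3. The log2 fold changes were -0.06 ± 0.16 (adjusted p = 0.882), 0.28 ± 0.17 (adjusted p = 0.38) and 0.15 ± 0.16 (adjusted p = 0.735). With the length-trend term the HPPE value turned to 0.24 and was called (adjusted p = 0.0145), the tin protoporphyrin value was 0.25 (adjusted p = 0.00171) and the zinc protoporphyrin value was 0.11 (adjusted p = 0.284).

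**Figure D3:**
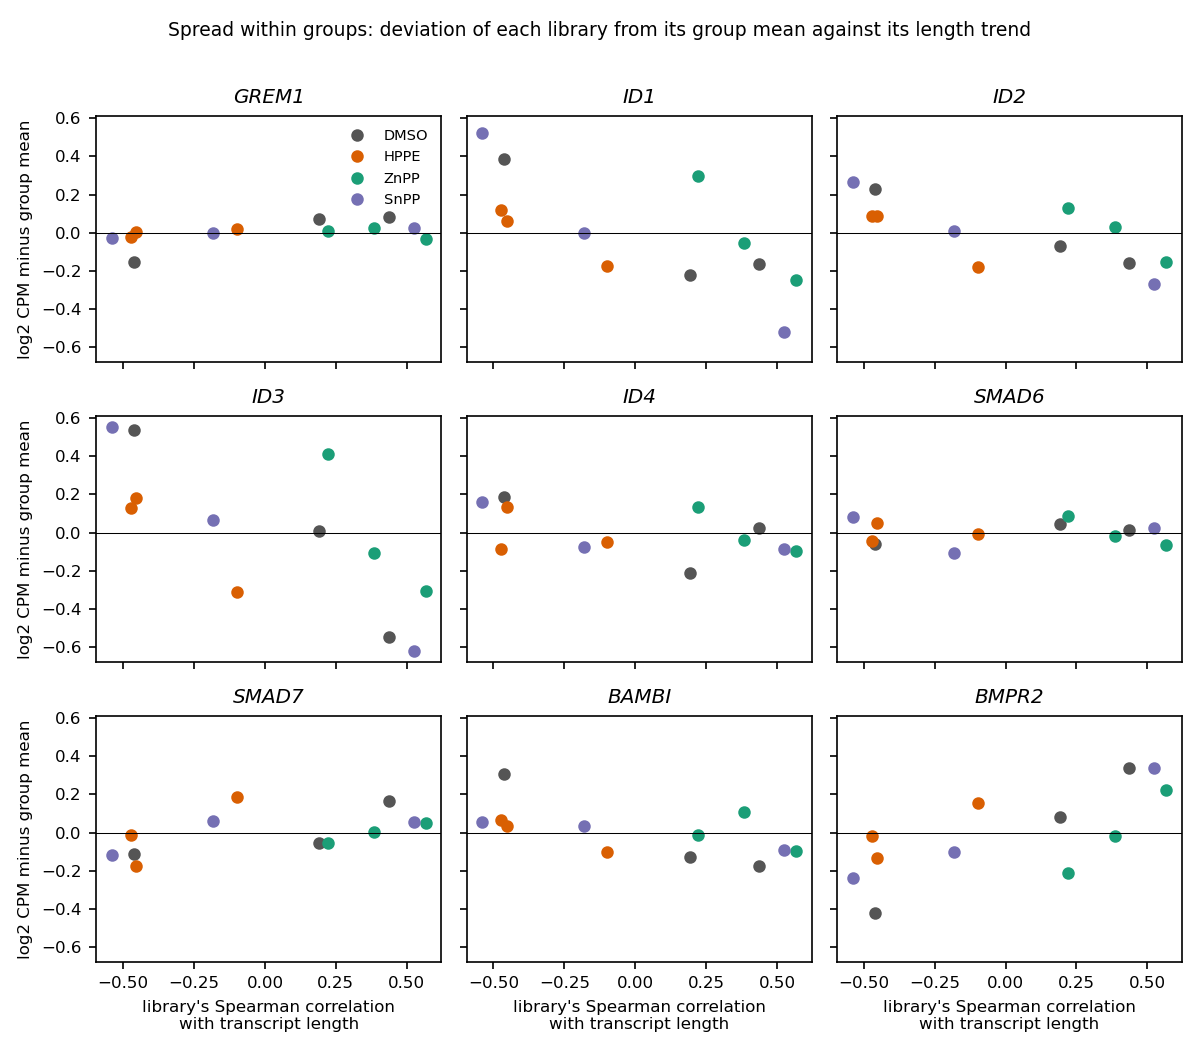
Deviation of each library from its group mean in log2 CPM (y axis) against that library's length trend (x axis), 1 panel per gene, 12 libraries coloured by group. The length trend is the Spearman correlation with transcript length of the library's deviations from the mean of all 12 libraries, not from its group mean. ID1, ID2 and ID3 fall from left to right and BMPR2 rises, while SMAD6 shows no slope.

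Among themselves, the 9 genes varied within groups in a pattern that went with transcript length. Over the 12 deviations from group means, ID1 went with ID2 (Pearson r = 0.963) and with ID3 (r = 0.928), and BMPR2 went against ID3 (r = -0.963). These correlations are descriptions: the deviations share libraries and depth. The deviations also tracked the libraries' length trend, after it too was centred by group, with r of -0.946 for ID1, -0.971 for ID2, -0.963 for ID3, -0.807 for BAMBI, -0.638 for ID4, 0.698 for GREM1, 0.702 for SMAD7 and 0.958 for BMPR2, against 0.014 for SMAD6. The shared movement of ID1, ID2, ID3 and BAMBI within groups was therefore also a movement of short against long transcripts; its cause was not tested. The median longest transcript over the 16185 tested genes with a length was 3327 nt.

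**Figure D4:**
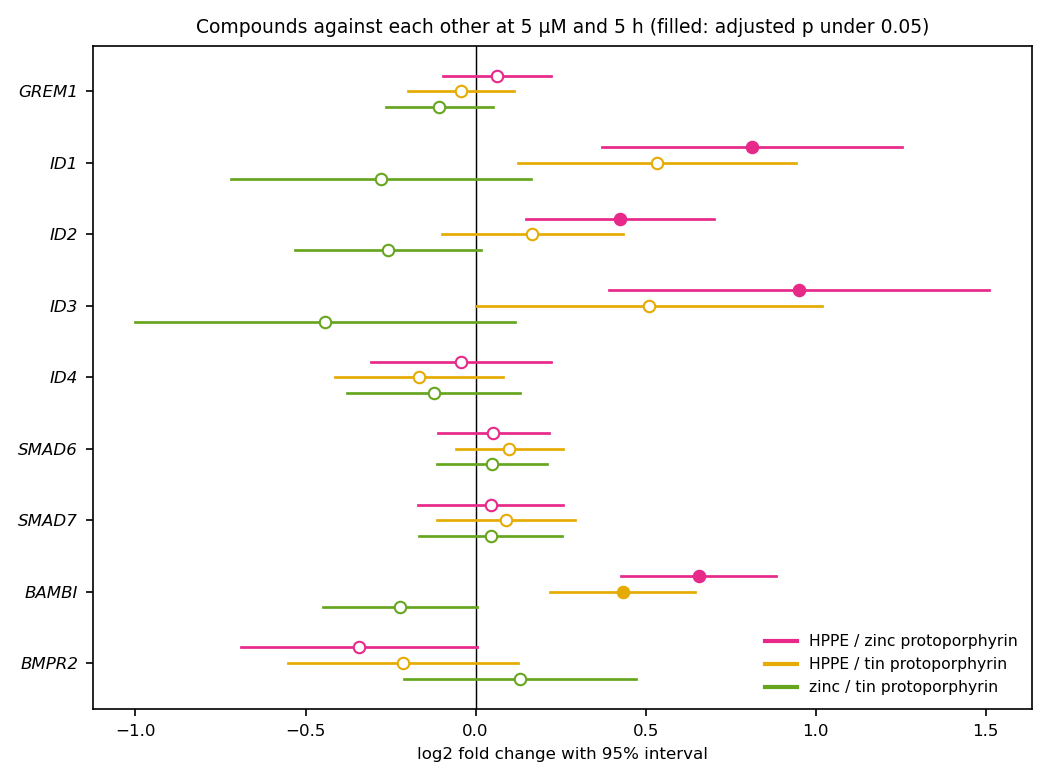
Log2 fold change between compounds at the same dose and time (x axis) with its 95% interval, for HPPE over zinc protoporphyrin (pink), HPPE over tin protoporphyrin (yellow) and zinc over tin protoporphyrin (green). Filled points passed an adjusted p of 0.05; BAMBI is filled in both comparisons of HPPE, GREM1 lies near 0 throughout, and no point is filled for zinc over tin protoporphyrin.

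The compounds were compared with each other at the same 5 µM and 5 h in 3 pairs, with p-values adjusted over genes within each pair. GREM1 did not separate them. Its log2 fold change was 0.06 ± 0.08 for HPPE over zinc protoporphyrin (SE; 95% interval -0.09 to 0.22; adjusted p = 0.588), -0.04 ± 0.07 for HPPE over tin protoporphyrin (-0.20 to 0.11; adjusted p = 0.848) and -0.11 ± 0.07 for zinc over tin protoporphyrin (-0.26 to 0.05; adjusted p = 0.523). The levels ran from DMSO control through zinc protoporphyrin and HPPE to tin protoporphyrin, and no neighbouring pair among the compounds passed the test. Any difference in GREM1 between 2 compounds was thus bounded by these intervals, although the libraries of zinc protoporphyrin lay below those of both other compounds. ID4 was not called between compounds either, with log2 values of -0.04 ± 0.13 (95% interval -0.31 to 0.22), -0.17 ± 0.12 (-0.41 to 0.08) and -0.12 ± 0.12 (-0.38 to 0.13).

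HPPE and zinc protoporphyrin differed in 4 of the 9 genes, where 6.44% of all tested genes were called higher with HPPE, 6.26% lower and 12.7% in either direction. All 4 were higher with HPPE. The log2 fold change was 0.66 ± 0.11 for BAMBI (SE; adjusted p = 0.00216), 0.81 ± 0.21 for ID1 (adjusted p = 0.0237), 0.95 ± 0.26 for ID3 (adjusted p = 0.0312) and 0.42 ± 0.13 for ID2 (adjusted p = 0.0441). The groups lay on opposite ends of the length trend, with library correlations of -0.472 to -0.0987 for HPPE and of 0.222 to 0.567 for zinc protoporphyrin. With that trend as a term, ID1 was at 0.15 (adjusted p = 0.582), ID2 at 0.04 (adjusted p = 0.874) and ID3 at 0.08 (adjusted p = 0.834), and only BAMBI stayed called, at 0.45 (adjusted p = 0.00282). With the main axis of the within-group deviations as a term, all 4 calls were kept, where 3017 of all tested genes were higher and 2681 lower. ID1 was then at 0.79 (adjusted p = 1.39e-12) and ID2 at 0.41 (adjusted p = 5.6e-09). ID3 was at 0.91 (adjusted p = 6.16e-15) and BAMBI at 0.63 (adjusted p = 2.28e-11). That axis is centred within each group, so it takes up spread within groups, and it moved these 4 values by little. Its smaller p-values come from the lower residual spread and do not bear on the length trend. How much of the ID1, ID2 and ID3 differences belongs to the length trend was not tested. BAMBI was called in all 16 alternatives of this comparison, at 0.45 to 0.73. BMPR2, not called in the main fit (-0.34, adjusted p = 0.159), was called lower with HPPE with the axis term (-0.33, adjusted p = 7.93e-07). It was also called lower in a fit of the 2 groups alone (-0.35, adjusted p = 0.0103), where 2227 of 15528 tested genes were higher and 2040 lower. With the length-trend term BMPR2 was at 0.13 (adjusted p = 0.458). With HPPE replicates 2 and 3 summed, ID1 (0.79, adjusted p = 0.0718), ID2 (0.39, adjusted p = 0.123) and ID3 (0.89, adjusted p = 0.0882) were not called. ID3 was also not called with DESeq2 (0.85, adjusted p = 0.0985) or with no filter on low counts (0.97, adjusted p = 0.186), nor ID2 with unscaled library sizes (0.46, adjusted p = 0.0506). The calls of these 3 genes were also lost without HPPE replicate 2 or 3 or zinc protoporphyrin replicate 2 or 3, and that of ID2 without zinc protoporphyrin replicate 1. Their log2 values there were 0.69 to 0.81 for ID1, 0.34 to 0.47 for ID2 and 0.80 to 0.93 for ID3.

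Between HPPE and tin protoporphyrin, 1 of the 9 genes was called, where 0.745% of all tested genes were higher with HPPE and 1.45% changed in either direction. BAMBI was higher with HPPE by 0.43 ± 0.10 on the log2 scale (SE; 95% interval 0.22 to 0.65; 1.35-fold; adjusted p = 0.0402), and its libraries did not overlap. The call was lost with HPPE replicates 2 and 3 summed (0.42, adjusted p = 0.155), with unscaled library sizes (0.42, adjusted p = 0.0883) and without any 1 library of either group other than tin protoporphyrin replicate 1, at 0.39 to 0.48. With the length-trend term BAMBI was at 0.36 (adjusted p = 0.000155), and ID1 (0.34, adjusted p = 0.000454) and ID3 (0.26, adjusted p = 0.0147) were called as well; without the term those 2 genes were at 0.53 (adjusted p = 0.226) and 0.51 (adjusted p = 0.381).

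Zinc and tin protoporphyrin, which differ in the metal, differed in none of the 9 genes by edgeR's test, where 0.00611% of all tested genes were called. That low share hung on 1 library. Without tin protoporphyrin replicate 2, 777 of 16909 tested genes were called higher with zinc protoporphyrin and 676 lower, and 1 of the 9 was called. Tin protoporphyrin replicates 1 and 2 were the least alike pair within groups (chi-square per degree of freedom 17.42). The widest intervals were those of ID3, at -0.44 (95% interval -1.0 to 0.12), and ID1, at -0.28 (-0.72 to 0.16), so a shift of ID3 by -1.0 on the log2 scale lay at the edge of its interval. BAMBI was at -0.22 (-0.45 to 0.00; adjusted p = 0.38), with the zinc protoporphyrin libraries below those of tin protoporphyrin, and BMPR2 at 0.13 (-0.21 to 0.47). The smallest unadjusted p of the 9 genes was 0.0535, for BAMBI, so 0 of the 9 were under 0.05 before adjustment, and DESeq2 called 0.

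**Figure D5:**
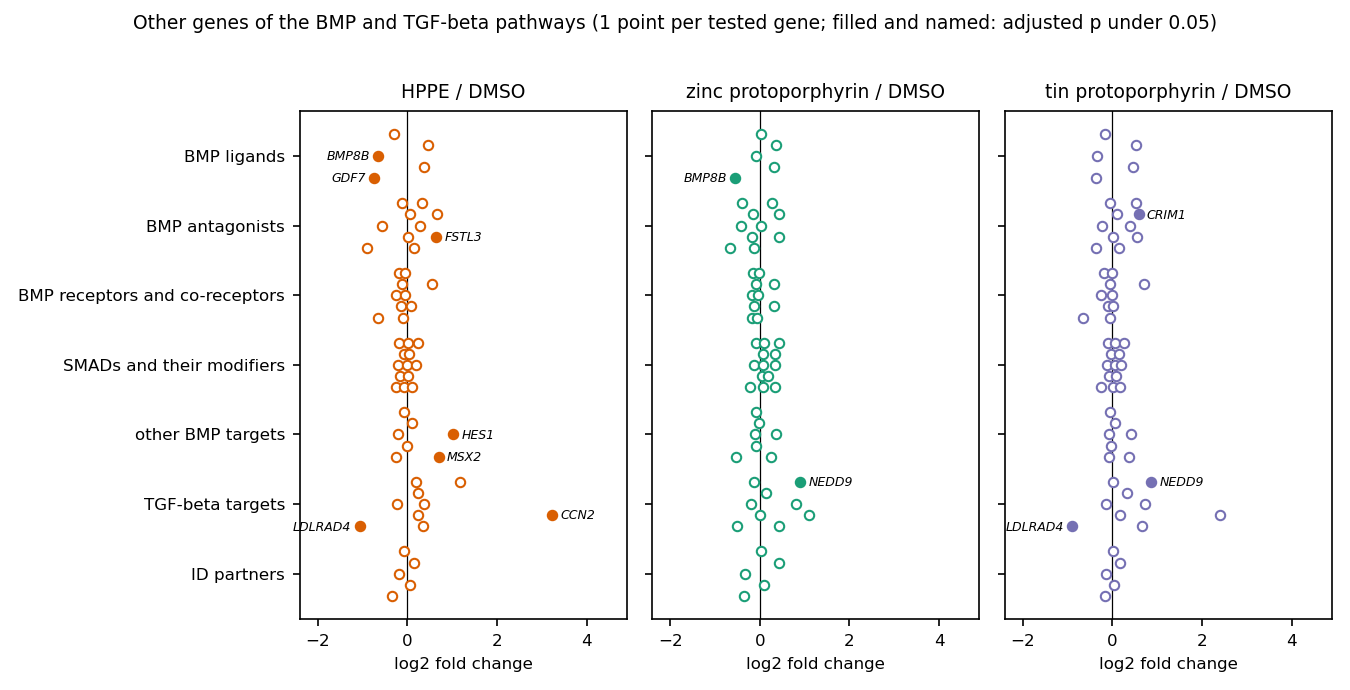
Log2 fold change against DMSO control (x axis) of the other tested genes in 7 lists of the BMP and TGF-beta pathways (y axis), 1 panel per compound and 1 point per gene. Filled, named points passed an adjusted p of 0.05; most genes lie near 0, receptors and SMADs have no filled point, and NEDD9 is filled with both protoporphyrins.

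Beyond these 9, the lists of the pathway held 79 other genes that are reported here, of which 58 were tested. With HPPE 4 of the 58 rose and 3 fell (12.1%), with zinc protoporphyrin 1 rose and 1 fell (3.45%), and with tin protoporphyrin 2 rose and 1 fell (5.17%), beside 4.04%, 2.25% and 2.28% of all tested genes. The median log2 fold change of the 58 lay between -0.0041 and 0.0182. No receptor or co-receptor (10 of 11 tested), no SMAD or SMAD modifier (13 of 13) and none of the 5 ID partners, the E proteins and their relatives, was called with any compound. The list medians there ran from -0.10 to 0.08.

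Ligands were scarce. Of 14 BMP ligands 5 were tested, and BMP3, BMP4, BMP10, BMP15 and GDF2 had 0 counts in all 12 libraries, each library's limit being the 3 counts given above. With HPPE, GDF7, a ligand of the roof plate, fell (17.5 ± 2.56 CPM in DMSO control, 10.6 ± 1.28 CPM with HPPE; SD, n = 3; -0.74 ± 0.16 on the log2 scale, adjusted p = 0.0127). BMP8B, whose reads may be shared with its near-identical copy BMP8A, was at 22.7 ± 1.41 CPM in DMSO control, 14.5 ± 1.86 with HPPE (log2 fold change -0.65 ± 0.13, adjusted p = 0.00731), 14.7 ± 1.66 with zinc protoporphyrin (-0.54 ± 0.13, adjusted p = 0.0405) and 17.3 ± 1.0 with tin protoporphyrin (-0.37 ± 0.12, adjusted p = 0.152). The GDF7 call was lost without DMSO control replicate 1 (-0.75, adjusted p = 0.0634) or 2 (-0.66, adjusted p = 0.112) or HPPE replicate 3 (-0.68, adjusted p = 0.0562). The BMP8B call was lost for HPPE without HPPE replicate 1 (-0.56, adjusted p = 0.0521), and for zinc protoporphyrin without any 1 of the 6 libraries compared (-0.58 to -0.51, adjusted p between 0.0714 and 0.179) and with DESeq2 (-0.54, adjusted p = 0.0815).

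Among 17 other BMP antagonists, 10 were tested, with log2 fold changes of up to 0.66 with HPPE, 0.44 with zinc protoporphyrin and 0.59 with tin protoporphyrin. FSTL3, a follistatin-like binder of activins, rose with HPPE (24.1 ± 2.18 CPM in DMSO control, 37.5 ± 4.03 CPM with HPPE; 0.64 ± 0.15 on the log2 scale, adjusted p = 0.016), and CRIM1, a membrane protein that binds BMPs, rose with tin protoporphyrin (21.4 ± 1.53 against 32.3 ± 2.11 CPM; 0.59 ± 0.13, adjusted p = 0.0218). Noggin (NOG) reached at most 1 count, and SOST and VWC2 had 0 in all libraries. The FSTL3 call was lost without DMSO control replicate 1 (0.56, adjusted p = 0.135) or 2 (0.68, adjusted p = 0.0766) or HPPE replicate 2 (0.67, adjusted p = 0.053) or 3 (0.58, adjusted p = 0.072), and with the length-trend term FSTL3 was at 0.41 (adjusted p = 0.0166). The CRIM1 call was lost without DMSO control replicate 1 (0.52, adjusted p = 0.169) or 2 (0.67, adjusted p = 0.0745) or tin protoporphyrin replicate 3 (0.60, adjusted p = 0.0726), and in a fit of the 2 groups alone (0.59, adjusted p = 0.0637).

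Of 11 other BMP targets, 7 were tested, and 2 rose with HPPE. HES1, a repressor that also answers to Notch, had 4.79 ± 0.35 CPM in DMSO control and 10.6 ± 2.7 CPM with HPPE (1.03 ± 0.23 on the log2 scale, adjusted p = 0.0131), and MSX2, a homeobox gene of the neural crest, had 13.9 ± 1.27 and 21.9 ± 0.31 CPM (0.70 ± 0.14, adjusted p = 0.00916). Neither was called with zinc protoporphyrin (0.26 and 0.36) or tin protoporphyrin (0.38 and 0.41). The HES1 call was lost without DMSO control replicate 1 (1.09, adjusted p = 0.0634) or 2 (1.0, adjusted p = 0.0953) or HPPE replicate 3 (0.89, adjusted p = 0.0527), and that of MSX2 without DMSO control replicate 1 (0.69, adjusted p = 0.0646) or 2 (0.66, adjusted p = 0.0851) or HPPE replicate 2 (0.69, adjusted p = 0.0504). The list median was 0.00 with HPPE, -0.07 with zinc protoporphyrin and -0.03 with tin protoporphyrin.

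Targets of TGF-beta, the related pathway that signals through SMAD2 and SMAD3, were measured beside the BMP genes. LDLRAD4, an inhibitor of TGF-beta signalling, fell from 25.6 ± 3.40 CPM (SD, n = 3) to 12.6 ± 0.78 with HPPE (log2 fold change -1.06 ± 0.15, adjusted p = 0.000271) and to 14.2 ± 2.18 with tin protoporphyrin (-0.90 ± 0.14, adjusted p = 0.00127), and was at 18.2 ± 2.30 with zinc protoporphyrin (-0.51 ± 0.14, adjusted p = 0.0762). NEDD9, an adhesion scaffold, rose from 15.9 ± 0.49 CPM to 31.3 ± 4.26 with zinc protoporphyrin (0.91 ± 0.12, adjusted p = 0.000582) and to 29.1 ± 2.07 with tin protoporphyrin (0.86 ± 0.12, adjusted p = 0.000307), and was at 20.4 ± 0.71 with HPPE (0.36 ± 0.12, adjusted p = 0.122). These calls of LDLRAD4 and NEDD9 against DMSO control held in every alternative run. NEDD9 was lower with HPPE than with zinc protoporphyrin (-0.55 ± 0.12, adjusted p = 0.0107) and tin protoporphyrin (-0.50 ± 0.11, adjusted p = 0.0248), and LDLRAD4 was lower with HPPE than with zinc protoporphyrin (-0.55 ± 0.15, adjusted p = 0.0295).

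CCN2, a matricellular target of TGF-beta and of YAP, was called with HPPE (adjusted p = 0.0246) on few counts. It had 0, 1 and 2 counts in the controls, all under the limit of 3, and 10, 20 and 7 with HPPE. With each control set at 3 counts, the mean CPM with HPPE was 2.14 times that of the controls. This ratio is not a lower bound, because it leaves out counting error with HPPE and in the controls with 1 and 2 counts. The CPM ranges overlapped. The call was lost without DMSO control replicate 1 (adjusted p = 0.212) or 2 (adjusted p = 0.181), without HPPE replicate 2 (adjusted p = 0.154) or 3 (adjusted p = 0.069), and with those 2 summed (adjusted p = 0.0573). All 9 TGF-beta targets reported here were tested. With HPPE 1 rose and 1 fell, with zinc protoporphyrin 1 rose, and with tin protoporphyrin 1 rose and 1 fell. Without CCN2 the list's median log2 fold change was 0.24, 0.08 and 0.25.

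The genes whose levels were most like that of GREM1 over the 12 libraries, among 10428 tested genes with a mean of at least 10 CPM, were DKK2 (Pearson r = 0.986), INSYN2B (r = 0.982), FERMT2 (r = 0.981), ACTN1 (r = 0.978) and FBLIM1 (r = 0.976). DKK2 encodes a secreted regulator of WNT signalling, FERMT2 an integrin adaptor and ACTN1 an actin crosslinker. The correlations are descriptions over libraries that fall into 4 groups with shared controls. DKK2 was closest to GREM1 also in size, with means of 18 CPM in DMSO control, 43.0 with HPPE, 45.5 with zinc protoporphyrin and 49.7 with tin protoporphyrin, and log2 fold changes of 1.19, 1.24 and 1.40. INSYN2B shifted more, by 2.12, 2.01 and 2.19, from a mean of 3.30 CPM in the control; it reached the minimum of 10 CPM only through the treated groups, where it is high. By contrast, FERMT2 (0.54, 0.54 and 0.58), ACTN1 (0.51, 0.55 and 0.60) and FBLIM1 (0.82, 0.87 and 0.99) had smaller values than GREM1. Of the other 8 genes, ID4 had the pattern most like that of GREM1 (r = 0.861), followed by SMAD7 (r = 0.737), and those of ID1 (r = 0.384), ID3 (r = 0.363) and BAMBI (r = 0.312) were less like it. These values take in the step from control to treated libraries for which GREM1 was chosen. Over deviations from the group means, ID4 (r = -0.524), ID1 (r = -0.583), ID3 (r = -0.607) and BAMBI (r = -0.835) went against GREM1, and SMAD7 went with it (r = 0.45).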

How the data were processed

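RNA of 12 libraries of SH-SY5Y cells was measured by mRNA sequencing. The values deposited by the authors are raw counts of reads per gene. Per the submitters' processing notes, reads were handled with fastp 0.21.1, STAR 2.7.7a and featureCounts on GRCh38; the annotation, settings and use of strand are not given in the sources used here. Of 60710 gene identifiers, 60481 matched a symbol, and all 109 listed genes had exactly 1 row. From the deposited counts, filterByExpr left 16366 genes with 99.6% of all counts, and library sizes were scaled by edgeR's TMM method; CPM are counts per 1e+06 of scaled library size. All 12 libraries entered 1 fit, with a term for each group, in edgeR 4.0.16 (glmQLFit, robust; limma 3.58.1; R 4.3.3), 6 comparisons were tested with glmQLFTest, two-sided, and Benjamini-Hochberg adjustment ran over all tested genes, with calls under 0.05. The biological coefficient of variation was 0.0913. Standard errors of log2 fold changes come from the quasi-likelihood F statistic. The procedure was tested on simulated counts.

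The 9 genes, the 7 pathway lists and the tests were chosen with earlier results of these data known; 1 listed gene is not reported here and was left out of its list's counts, medians and plot. Named beside the 9 genes were, from each list, up to 4 genes called against DMSO control with the largest change, and the 5 genes most correlated with GREM1 in log2 CPM (prior count 2). Transcript lengths were those of the longest transcript in GENCODE, known for 16185 of the 16366 genes; promoters and positions came from RefSeq on GRCh38.p14, where all 9 genes matched. The alternatives were RLE size factors, library sizes left unscaled, no filter beyond 1 count, a fit to the 2 groups compared, the Wald test of DESeq2 1.42.0, the replicate number as a block, a library axis (the first principal component of within-group deviations over 10972 genes, 52.7% of their variance) as a term, HPPE replicates 2 and 3 summed, and each library left out. Added after the data were seen were the length trend as a term and the removal of the 2 shallowest libraries (DMSO control replicate 3 and zinc protoporphyrin replicate 1).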

Additional observations from a re-analysis of the deposited data

How the results depend on the processing

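The values of single genes kept direction and side of the threshold in 864 recomputations, lost the call in 99, gained it in 26 and turned direction in 25. The 864 include values not called in the fit reported above, so this tally does not measure how stable the calls were. GREM1 against DMSO control was not tested and was counted as kept when it moved by less than 1 standard error. The number of the 9 genes called (8 against DMSO control) moved as follows. With HPPE against DMSO control it was 4, and 2 with no filter, 1 with HPPE replicates 2 and 3 summed, and 1 to 4 without 1 library: 1 without DMSO control replicate 1 or 2 or HPPE replicate 2 or 3, and 2 without HPPE replicate 1. With zinc protoporphyrin it was 1. It was 4 with the library axis (ID2 lower, the rest higher), where 2247 of all tested genes were higher and 1911 lower. With the length trend it was 3, where 968 were higher and 679 lower. It was 0 without both shallow libraries and 0 to 1 without 1 library (1 only without DMSO control replicate 3). With tin protoporphyrin it was 1, and 0 in the fit of 2 groups. It was 5 with the library axis (all higher), where 1260 of all tested genes were higher and 947 lower. With the length trend it was 3, where 1155 were higher and 819 lower. Without 1 library it was 0 to 1 (0 only without DMSO control replicate 2). For HPPE against zinc protoporphyrin it was 4, and 1 with HPPE replicates summed. It was 5 with the library axis (BMPR2 lower, the rest higher), where 3017 of all tested genes were higher and 2681 lower. With the length trend it was 1, where 284 of all tested genes were higher and 185 lower. Without 1 library it was 1 to 4 (1 without HPPE replicate 2 or 3 or zinc protoporphyrin replicate 2 or 3). For HPPE against tin protoporphyrin it was 1, and 0 with unscaled library sizes or with HPPE replicates summed. It was 5 with the library axis (BMPR2 lower, the rest higher), where 1357 of all tested genes were higher and 1237 lower. With the length trend it was 3, where 616 were higher and 560 lower. Without 1 library it was 0 to 2 (2 without tin protoporphyrin replicate 1). For zinc against tin protoporphyrin it was 0. It was 2 with the library axis (ID2 and ID3, both lower with zinc), where 1221 of all tested genes were higher and 1129 lower. Without 1 library it was 0 to 1 (1 without tin protoporphyrin replicate 2, where 777 of 16909 were higher and 676 lower). The library axis and the length trend take up spread within groups, so fits with them have a smaller residual spread by construction. The length trend also differs between groups, while the library axis is centred within each group.

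The replicate numbers did not pair the libraries: correlations of same-numbered deviations ran from -0.683 to 0.517, and 3 of 12 libraries correlated best with a library of their own number. With the replicate block the number called was 0 for zinc protoporphyrin against DMSO control, 1 for HPPE against zinc protoporphyrin, 0 for HPPE against tin protoporphyrin, and 3 for HPPE against DMSO control, where ID3 was not called (1.02, adjusted p = 0.0856). ID4 was then at 0.60 for zinc protoporphyrin against DMSO control (adjusted p = 0.0662), and the calls of BMP8B with zinc protoporphyrin, CRIM1 with tin protoporphyrin and CCN2 with HPPE were lost as well.

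Directions turned only for values without a call in the fit reported above. With the length trend, BMPR2 was at 0.24 for HPPE against DMSO control and at 0.13 for HPPE against zinc protoporphyrin, BAMBI at 0.08 for zinc protoporphyrin against DMSO control, and ID2 at -0.01 for tin protoporphyrin against DMSO control. For zinc against tin protoporphyrin, ID1 was then at 0.19, ID3 at 0.18, SMAD7 at -0.06 and BMPR2 at -0.14. BMPR2 was at 0.01 for HPPE against DMSO control with the library axis, and BAMBI at 0.09 for zinc protoporphyrin without both shallow libraries. Without 1 library, the log2 value of BMPR2 for HPPE against DMSO control ran from -0.20 to 0.11. For zinc protoporphyrin against DMSO control, ID3 ran from -0.19 to 0.25, SMAD6 from -0.06 to 0.01 and BAMBI from -0.11 to 0.08. For tin protoporphyrin against DMSO control, ID2 ran from -0.05 to 0.21 and BMPR2 from -0.06 to 0.33. SMAD7 ran from -0.06 to 0.12 for HPPE against zinc protoporphyrin and from -0.02 to 0.16 for HPPE against tin protoporphyrin. For zinc against tin protoporphyrin, ID1 ran from -0.52 to 0.02, SMAD6 from -0.01 to 0.08, SMAD7 from -0.02 to 0.08 and BMPR2 from 0.00 to 0.33. The cause of these moves was not tested. Of the ligands and other antagonists, 16 had too few counts to test; low depth and absent expression cannot be told apart there.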
